A study of Talaromyces verruculosus with 6 samples.

Results

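Genes with several exons whose reads fell mostly outside their annotated exons were examined in the filamentous fungus Talaromyces verruculosus, strain TS63-9, whose mycelia were grown with pectin or without it. Members were annotated genes with at least 2 exons, at least 100 gene reads in each of the 6 libraries, and at least 50% of those reads outside exons in each library. There were 168 such genes among 5247 genes with at least 2 exons and the same number of reads (3.20%), and among 11326 annotated genes in all. The members were thus chosen by read number and by the measured share of reads outside exons in all 6 libraries, and the level of that share is given below as a description without a test. Pectin, a polysaccharide of plant cell walls, was added at 5 g/L in 3 cultures, and 3 control cultures received none. Both groups were grown in a basic medium from plugs of the same strain, and RNA was taken at 24 h. RNA selected for poly-A tails was sequenced as read pairs. The design text calls the 3 samples of each group biological replicates and says no more of how separate the cultures were.

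Genes of filamentous fungi are usually interrupted by a few short introns, which the spliceosome removes before the RNA leaves the nucleus. An intron that stays in the mature RNA is a common form of splicing variation in fungi and often brings a premature stop codon into the reading frame. Reads of a gene can also lie outside its annotated exons for other reasons, among them untranslated ends that the gene model lacks, a wrong exon boundary, or transcription from the other strand. Counts per gene cannot tell these apart. The files pair no locus tag with a gene name or product, so members are given by tag and contig position. Positions are on the contigs named in the files, and the name of the genome build is not given in the sources used here.

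Libraries held 12369692 to 13849235 reads on genes. The files split each gene's reads into exon reads and a remainder headed as intron reads, and the 2 kinds add up to the gene count. Genes annotated with a single exon also have such a remainder, although their models contain 0 bases outside exons. In 1196 single-exon genes with at least 100 reads in every library its median was 16.7% of gene reads, and 60 of them (5.02%) had at least 50% in every library. The remainder is therefore called reads outside exons, and it need not count intron bases alone. Over all genes this share was 15.1 ± 0.841% in pectin and 17.7 ± 1.85% in control libraries (SD, n = 3 each), with every pectin library below every control.

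Most members went well past the threshold of 50%. The mean share over the 6 libraries ran from 52.9% to 99.9%, with a median of 67.8%, beside a median of 13.0% in the 5079 other multi-exon genes. In 36 members the share was at least 75% in every library, and in 12 it was at least 90%. A member's highest and lowest library lay a median of 8.18 percentage points apart and at most 25.8, beside medians of 5.83 in the other multi-exon genes and 6.91 in single-exon genes. Counting error is larger for shares nearer 50% and for fewer reads, so whether members vary more between libraries was not tested. The members held 2.04 ± 0.216% of all gene reads in pectin libraries and 1.94 ± 0.180% in controls (SD, n = 3 each). They held 8.67 ± 0.889% of all reads outside exons in pectin libraries and 7.24 ± 0.0422% in controls. Without ZTR_04555, the member with the most reads, these were 6.65 ± 0.173% and 5.85 ± 0.636%, and the groups overlapped. At the border, ZTR_06810 was the last gene inside, with a share of 57.9, 58.1 and 59.5% in pectin libraries 1 to 3 against 50.0, 50.4 and 54.3% in controls 1 to 3. ZTR_05266, the next inside, had 62.4, 58.9 and 50.2% with pectin against 66.9, 73.1 and 68.2% in controls. Outside it, ZTR_06184 had a lowest share of 49.94% and ZTR_01188 of 49.75%. The border was crowded, with 40 members under 55% in their lowest library and 65 other genes at 45% to 50%.

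**Figure D1:**
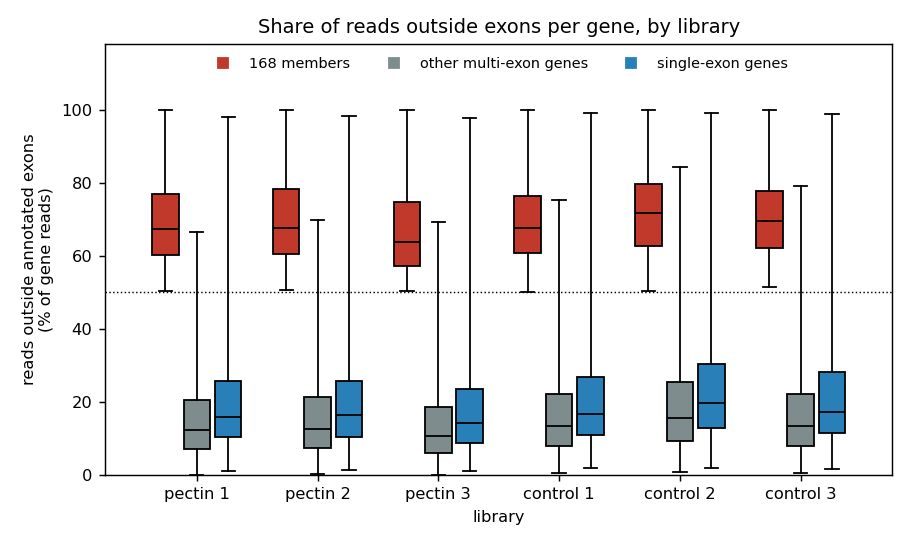
Share of reads outside annotated exons per gene (vertical axis, percent of gene reads) in each library (horizontal axis, pectin 1 to 3 and then control 1 to 3), for the 168 members, the other multi-exon genes and the single-exon genes, all with at least 100 reads in every library. Boxes span the quartiles, lines in them are medians, whiskers reach the lowest and highest gene, and the dotted line is the 50% threshold that set the members apart.

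Members had short coding sequences. Their median coding length was 721.5 bases, beside 1512 in the other multi-exon genes, and 116 of 168 members (69.0%) were under 1000 bases, beside 24.9% of the others. Members made up 44 of 294 multi-exon genes of up to 500 coding bases (15.0%), 72 of 1088 of 501 to 1000 (6.62%), 45 of 2272 of 1001 to 2000 (1.98%) and 7 of 1593 longer ones (0.439%). Across single-exon genes the share fell steeply with coding length, with a Spearman coefficient of −0.905 over 1196 genes. Over all 5247 multi-exon genes the coefficient was −0.447, and over the members, a set truncated on the share itself, −0.207. Genes are not independent replicates, and these coefficients describe the libraries.

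The comparison with single-exon genes differed by length. Up to 500 bases, the 44 members had a median share of 69.8% and 61 single-exon genes one of 67.5%, and 50 of those 61 had at least 50% in every library. From 501 to 1000 bases the medians were 68.1% in 72 members and 29.7% in 329 single-exon genes, of which 10 passed 50% everywhere. From 1001 to 2000 bases they were 67.6% in 45 members and 15.5% in 535 single-exon genes, of which 0 passed. The members' medians vary little with length because each member had to reach 50%. Over all multi-exon genes with the read minimum, members included, the medians in the same order of length were 22.5, 23.1 and 13.6%, each below that of the single-exon genes. Over 2000 bases this did not hold, with medians of 8.40% in 1593 multi-exon genes and 8.27% in 271 single-exon genes. No test is given, since the share chose the members.

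**Figure D2:**
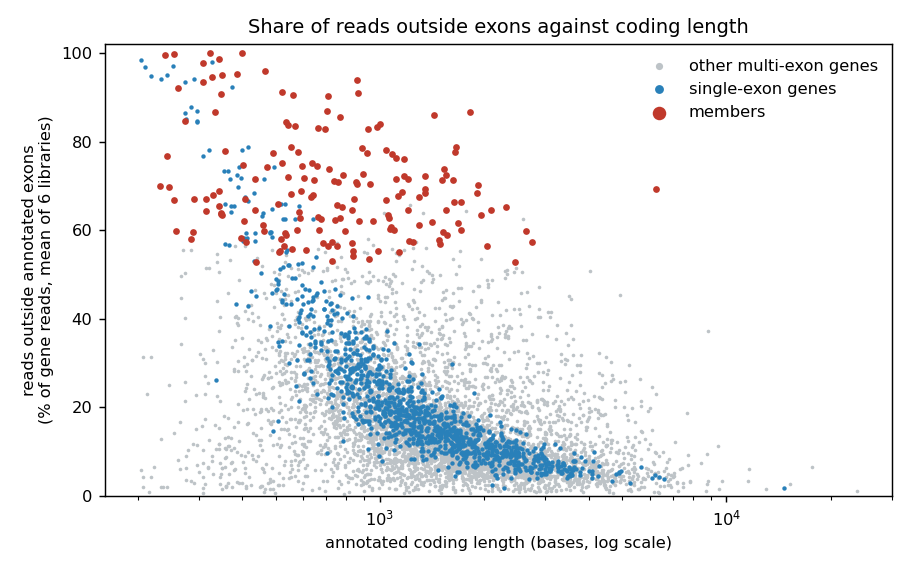
Mean share of reads outside exons over the 6 libraries (vertical axis, percent of gene reads) against annotated coding length (horizontal axis, bases, log scale). Each point is a gene. Single-exon genes form a band that falls with length, and members, at 52.9% to 99.9%, overlap it below 500 bases and, with fewer single-exon genes as high, from 501 to 1000 bases.

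Members also had longer introns. The mean intron length of a member had a median of 78.4 bases, beside 60 in the other multi-exon genes, and the bases between exons took a median of 21.3% of the gene span, beside 9.99%. The median was 3 exons in both sets, and 152 members had 2 to 5 exons. By exon number, members were 3.83% of genes with 2 exons, 3.35% with 3, 2.91% with 4 and 4.19% with 5, without a steady trend. They were 16 of 928 genes with 6 or more exons (1.72%), beside 3.20% of all multi-exon genes with the read minimum. Members were 42 of 2527 genes with mean introns under 60 bases (1.66%), 60 of 1836 from 60 to under 100 (3.27%), 42 of 673 from 100 to under 200 (6.24%) and 24 of 211 with longer introns (11.4%). Set per annotated base, reads outside exons were denser than exon reads in all 168 members, with a median ratio of 10.2 in the 165 with exon reads in every library. In all but 9 members the exons are longer than the bases between them, so this direction follows from the choice of members. The lowest ratios were 1.27 in ZTR_01110 and 1.28 in ZTR_01651. Where these reads lie was not tested. With 150 bases added per intron and at each gene end 149 members remained above 1.

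Read numbers were lower in members, with a median of 482.6 gene reads per library, beside 945.5 in the other multi-exon genes. Positions of the members differed at contig ends. Members were spread over 96 of 286 contigs, and 6 of them lay next to another member. The first or last annotated gene of its contig was a member in 19 of 203 cases (9.36%), beside 149 of 5044 inner genes (2.95%). The median gap to the next gene upstream was 1131.5 bases for members and 903.0 for the other multi-exon genes, and downstream it was 740.0 and 620.0. The next gene downstream was on the same strand for 74 of 157 members and 2086 of 4982 other genes with one.

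Reads that span exon-exon junctions, which show an annotated intron removed, divided the members. They were not part of the choice of members, although they are counted among exon reads. In 51 members (30.4%) they made up under 5% of exon reads, beside 276 of 5079 other multi-exon genes (5.43%). In 65 members (38.7%) they made up at least 50%, beside 30.8% of the others, and 52 members lay between. These limits were set with the values already known. Members with at least 50% had a median coding length of 507.0 bases, those with under 5% one of 792.0 and those between one of 1054.5. Their median shares of reads outside exons were 66.8, 67.9 and 68.6% in the same order, values held close because each member had to reach 50%. Over all multi-exon genes with the read minimum, the median share was 23.2% with under 5% junction reads and 16.2% with at least 50%. It was 9.84% from 5 to under 20% and 13.5% from 20 to under 50%. In the other multi-exon genes, too, those with at least 50% junction reads were the shorter ones, at a median of 945.0 bases against 1966.5 with under 5%.

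**Figure D3:**
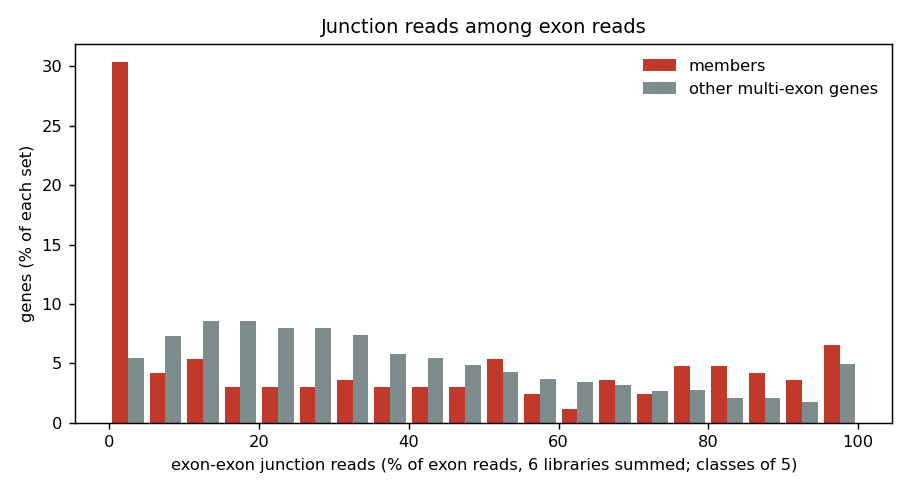
Genes by the percentage of exon reads that span an exon-exon junction (horizontal axis, 6 libraries summed, classes of 5 percentage points), as a percentage of the 168 members or of the other multi-exon genes (vertical axis). The lowest class holds 30.4% of members and 5.43% of other genes.

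The members in which exon reads were nearly missing came first by share. ZTR_00668, on LHCL01000004 from 104698 to 105276 on the minus strand and made of 3 exons, had 151, 120 and 187 reads outside exons in pectin libraries 1 to 3 against 250, 274 and 251 in controls 1 to 3. Its exons of 399 bases held 1 read in the 6 libraries together. ZTR_10573, near the start of LHCL01000068 from 639 to 1315 on the minus strand, had 135, 181 and 260 reads outside exons with pectin against 186, 169 and 196 in controls, and again 1 exon read in all. ZTR_00001, on LHCL01000005 from 4528 to 4897 on the plus strand, had 154, 180 and 180 against 257, 250 and 195, and 3 exon reads. All 3 had 0 junction reads, and none of them passed the test of reads outside exons between groups (edgeR adjusted p = 0.486, 0.341 and 0.98 in the same order). Their exon reads were too few to be tested. ZTR_05635, next by share, had many more reads and is described with the genes that changed.

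In 21 members, these 3 included, 0 junction reads were counted in the 6 libraries, with 1 to 5189 exon reads behind that count and a median of 526. In 14 of them the exon reads were enough to limit the junction share to 1% or less. ZTR_01651, on LHCL01000003 from 586716 to 588896 on the minus strand, has 5 annotated exons. It had 1538, 1050 and 1190 reads outside exons in pectin libraries against 950, 1204 and 1271 in controls, and 940, 647 and 744 exon reads against 625, 745 and 689. None of its 4390 exon reads spanned a junction, which allows a junction share of up to 0.0683% (3 reads, counting error only). ZTR_00999, with 2 exons, had 0 among 5189 exon reads (up to 0.0578%), and ZTR_05492, with 4 exons, 0 among 4056 (up to 0.0740%); these 2 were picked after their values had been seen. In these genes the annotated introns were not seen to be removed in either group.

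At the other end, members could have mostly junction reads among their exon reads and still be rich in reads outside exons. The junction share is taken over exon reads alone, so it does not give the part of a gene's RNA that was spliced. ZTR_08875, on LHCL01000037 from 108001 to 109760 on the plus strand, has 5 exons with 603 coding bases and 1157 bases between them. Its reads outside exons numbered 16365, 16994 and 11204 in pectin libraries against 7320, 9620 and 11592 in controls, a share of 66.9% to 75.3% over the 6 libraries. Of its exon reads 91.3% spanned a junction. ZTR_11172, on LHCL01000079 from 120518 to 121409 on the plus strand, had a share of 64.5, 51.3 and 62.2% with pectin against 59.6, 69.3 and 67.6% in controls, and 70.7% of its exon reads spanned a junction. Both groups overlapped in the share of each of these genes. The exon reads of ZTR_08875 rose with pectin by 0.86 on the log2 scale (SE 0.20, edgeR adjusted p = 0.0268), and its reads outside exons changed by 1.05 without passing the test (SE 0.30, edgeR adjusted p = 0.0521).

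A single member held a large part of the members' reads. ZTR_04555, on LHCL01000020 from 146111 to 148262 on the plus strand and made of 3 exons with 1476 coding bases, had 35467, 83260 and 83512 gene reads in pectin libraries against 23353, 87017 and 65053 in controls. Library 1 of each group was the low one, and the groups overlapped. Its share of reads outside exons was 56.9% to 58.3% in all 6 libraries, although its read number differed widely between them. It took 14.7% to 30.4% of the members' gene reads in pectin libraries and 10.4% to 29.3% in controls. Neither its exon reads (log2 fold change 0.39, SE 0.53, edgeR adjusted p = 0.663) nor its reads outside exons (0.67, SE 0.51, edgeR adjusted p = 0.469) differed beyond the spread between replicates.

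**Figure D4:**
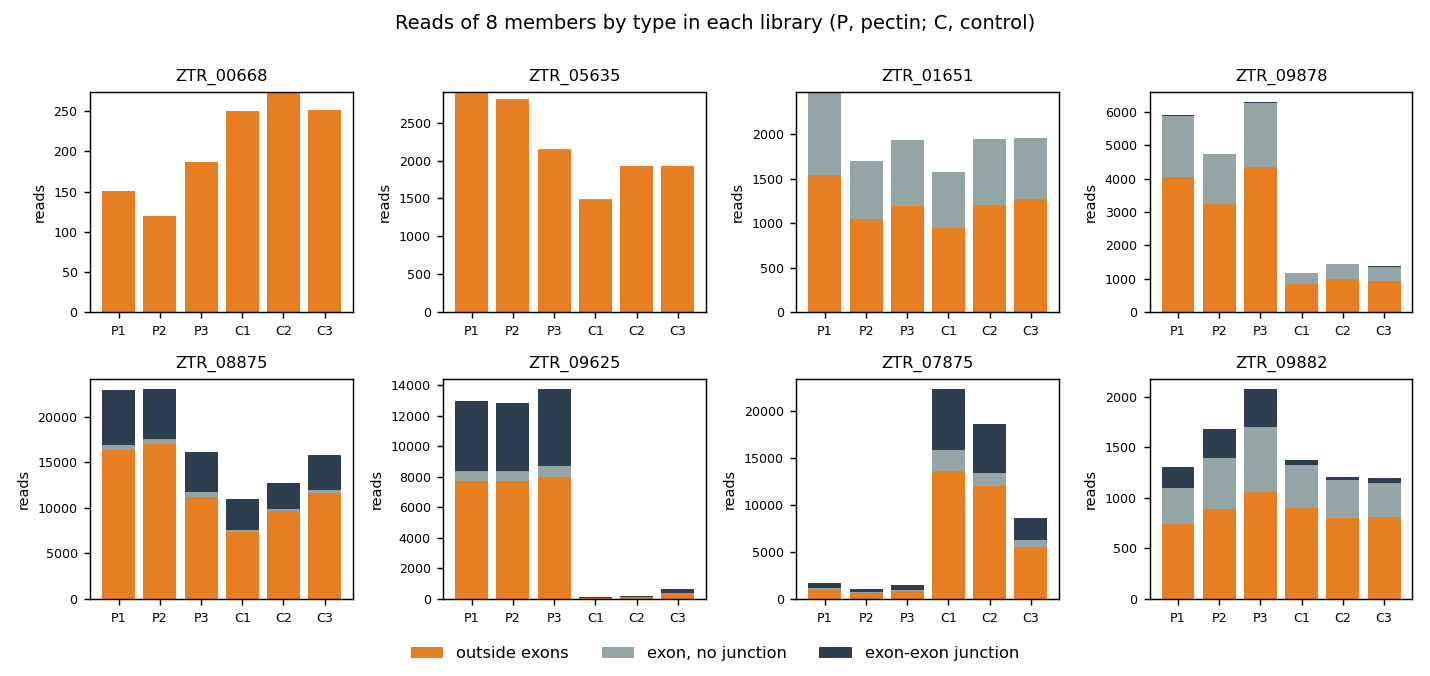
Reads of 8 members (vertical axes, each on its own scale from 0) in the 3 pectin (P) and 3 control (C) libraries, stacked by type: outside exons, within exons without a junction, and across an exon-exon junction. ZTR_00668 and ZTR_05635 consist almost wholly of reads outside exons, ZTR_01651 has no junction reads, and ZTR_09882 has 204 to 367 junction reads with pectin against 33 to 46 in controls.

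The design asks which genes change when pectin is present. In exon reads, 14 members were higher and 9 were lower with pectin (edgeR's quasi-likelihood test, adjusted p under 0.05 over all 9177 genes tested). That is 8.7% and 5.59% of the 161 members with enough exon reads to be tested, beside 9.2% and 7% of all genes tested and 9.45% and 5.25% of tested multi-exon genes with the same number of reads. The members' shares were near these backgrounds. At 2-fold or more there were 10 higher and 8 lower, or 6.21% and 4.97% of members, beside 6.08% and 5.49% of all genes and 4.71% and 3.3% of the multi-exon genes. The median log2 fold change was 0.11 in the members, −0.0061 over all genes tested and 0.057 in multi-exon genes with the read minimum. On total gene reads these medians were 0.025, −0.0065 and 0.070. Scaling by library size alone gave −0.096, −0.21 and −0.15 in exon reads, so the sign in the members turned with the scaling. That scaling gave 9 higher and 11 lower members. Fits that left out pectin 1 gave 8 higher and 3 lower members, those without pectin 2 gave 7 and 2, and those without control 2 gave 6 and 4. Leaving out control 3 gave 4 lower members.

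Reads outside exons, tested in the same way, were higher in 14 members and lower in 7 of the 168 tested (edgeR, adjusted p under 0.05 over 8138 genes). These are 8.33% and 4.17% of members, beside 5.33% and 4.74% of all genes tested and 4.08% and 3.5% of the multi-exon genes. These backgrounds were not matched on the number of reads outside exons, whose share chose the members. Whether members were called more often was therefore not tested. At 2-fold or more there were 9 higher and 6 lower, or 5.36% and 3.57% of members, beside 4.33% and 4.35% of all genes and 2.71% and 3.06% of the multi-exon genes. The median log2 fold change was 0.15 in members, −0.0242 over all genes tested and 0.0106 in the multi-exon genes. With library size alone there were 9 and 7, and the medians were −0.026, −0.19 and −0.16 in the same order. Here, too, the sign in the members turned with the scaling. Fits that left out pectin 1 gave 6 higher and 4 lower members, those without pectin 2 gave 6 and 3, and those without control 2 gave 6 and 4. Leaving out pectin 3 gave 7 higher members. With the replicate number as a block there were 26 and 11, and over all genes 721 and 725. Whether equal numbers mark pairs is not settled. Exon reads and reads outside exons come from the same libraries, so the 2 tests are not independent of each other.

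The largest rise of a member was that of ZTR_09625, on LHCL01000217 from 2803 to 3985 on the plus strand and made of 3 exons. Its RPKM (exon reads scaled to exon length and library size) was 452, 466 and 529 in pectin libraries 1 to 3 against 5.00, 6.87 and 21.1 in controls 1 to 3. Every pectin library lay above every control, and control 3 was the highest of the controls. The log2 fold change was 5.57 in exon reads (SE 0.59, edgeR adjusted p = 0.00142) and 5.69 in reads outside exons (SE 0.62, edgeR adjusted p = 0.000457), and without control 3 these were 6.48 and 6.72. Its share outside exons was 59.3 ± 1.04% with pectin and 61.0 ± 2.16% in controls (SD, n = 3 each). As a member, the gene had to have at least as many reads outside exons as exon reads in every library. With such a rise in exon reads, a rise in reads outside exons therefore follows from the choice of members. Junction reads made up 87.2% of its exon reads.

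ZTR_05635 and ZTR_09878 followed in exon reads, with rises that differed by less than their errors. ZTR_05635 had very few exon reads. It lies on LHCL01000023 from 243639 to 243962 on the minus strand, and its 2 exons hold 240 bases. Exon reads numbered 24, 19 and 16 in pectin libraries against 5, 3 and 5 in controls, and reads outside exons 2882, 2795 and 2135 against 1484, 1931 and 1927. All pectin libraries were above all controls in both. The log2 fold change was 2.34 in exon reads (SE 0.39, edgeR adjusted p = 0.00873) and 0.97 in reads outside exons (SE 0.23, edgeR adjusted p = 0.0295). Tested on total gene reads, nearly all of which lie outside exons, it was 0.80. The gap to the next annotated gene upstream is 253 bases. ZTR_09878, the only annotated gene of LHCL01000377, from 159 to 1759 on the plus strand, had the next largest rise in reads outside exons. They numbered 4041, 3236 and 4347 with pectin against 845, 981 and 944 in controls (log2 fold change 2.51, SE 0.27, edgeR adjusted p = 0.000376). Its exon reads rose alongside, by 2.34 on the log2 scale (SE 0.21, edgeR adjusted p = 0.000661), while 0.523% of them spanned any of its annotated junctions.

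Among members that fell, ZTR_07875 fell furthest. It lies on LHCL01000046 from 192562 to 193069 on the plus strand and has 2 exons with 49 bases between them. Its RPKM was 82.42, 55.04 and 84.12 in pectin libraries against 1175, 804 and 383 in controls, with no overlap and control 1 the highest. The log2 fold change was −3.25 in exon reads (SE 0.39, edgeR adjusted p = 0.00243) and −3.21 in reads outside exons (SE 0.39, edgeR adjusted p = 0.000795). ZTR_06163, on LHCL01000052 from 38620 to 39123 on the minus strand and made of 2 exons, had 5.35, 2.92 and 3.68 RPKM with pectin against 53.6, 36.5 and 28.0 in controls (log2 fold change in exon reads −3.13, SE 0.33, edgeR adjusted p = 0.00129). ZTR_08985, on LHCL01000042 from 179649 to 180161 on the minus strand, had the second largest fall in reads outside exons. They numbered 186, 121 and 184 with pectin against 1489, 986 and 1334 in controls (log2 fold change −2.53, SE 0.31, edgeR adjusted p = 0.000882). All pectin libraries lay below all controls in each of these genes.

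**Figure D5:**
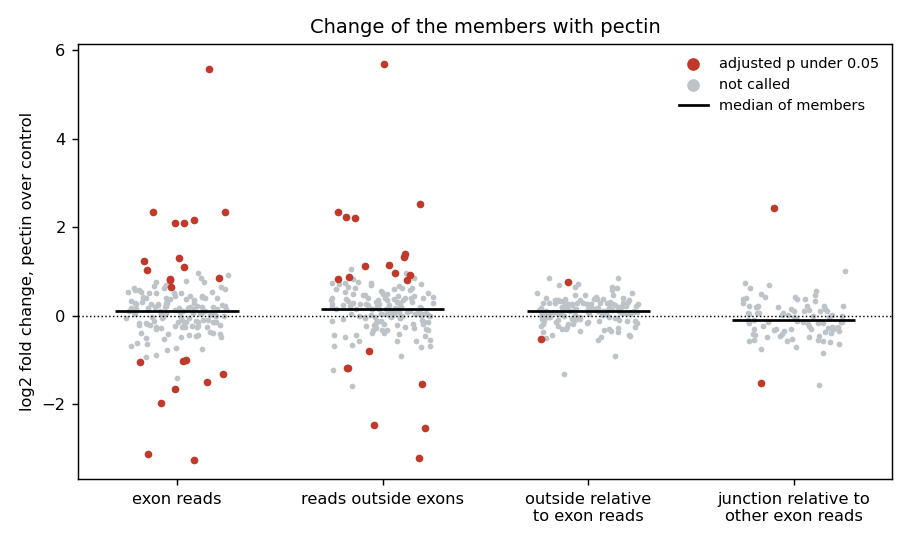
Log2 fold change of each member, pectin over control (vertical axis), in exon reads, in reads outside exons, in reads outside exons relative to exon reads and in junction reads relative to other exon reads (horizontal axis). Red points passed an adjusted p under 0.05 and black lines are medians over the members tested. Exon reads and reads outside exons reach beyond 5 and below −3, while the share outside exons stays mostly within 1. The choice of members by this share limits how far it could move.

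The share in all 6 libraries chose the members, so its levels in the groups are given as a description, and nothing is read from how often they overlap. Over the members' pooled reads it was 64.0 ± 1.51% in pectin and 66.3 ± 0.489% in control libraries (SD, n = 3 each), and without ZTR_04555 it was 66.0 ± 1.20% and 68.7 ± 1.68%. The mean share of a member changed by a median of −1.88 percentage points, beside −1.92 in the other multi-exon genes. The members' shares were kept from falling below the threshold and those of the other genes were not, so these medians are not compared. Pectin 3 had the lowest share in 69 members and control 2 the highest in 82, and these were also the libraries with the lowest and highest share over all genes. The share lay lower in all pectin libraries than in all controls in 37 members (22.02%), beside 31.8% of all multi-exon genes with the read minimum, and higher in 5 (2.98%), beside 0.762%. Fitted as a change of reads outside exons relative to exon reads, with each kind scaled to its own library total, 1 member was higher and 1 lower of 162 tested (edgeR, adjusted p under 0.05 over 8062 genes). That is 0.617% each, beside 0.26% and 0.757% of all genes tested and 0.308% and 1.02% of the multi-exon genes. A member's share could not lie below the threshold in any library, which limits how far it could move between the groups. Other genes had no such floor, so whether members were called more or less often was not tested. The calls, those of ZTR_03532 and ZTR_09882 below included, are given as a description. With the replicate number as a block, 6 members were higher and 2 lower, and over all genes 56 and 165. The median relative log2 change was 0.11 in the members and −0.0054 over all genes. With one scaling for both kinds, which leaves the shift of the whole libraries in, the medians were −0.155 and −0.27, so the direction in the members turns with the scaling.

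ZTR_03532 was the member with a higher share. It lies on LHCL01000012 from 333107 to 333628 on the minus strand and is made of 5 exons with 309 coding bases, and its share was 94.4, 94.9 and 93.9% with pectin against 92.7, 93.8 and 90.2% in controls. The pectin libraries were all above the controls, by little. Reads outside exons rose 0.76 on the log2 scale relative to exon reads (SE 0.17, edgeR adjusted p = 0.0267). The call was lost without pectin 1, 2 or 3 (edgeR adjusted p = 0.0841, 0.114 and 0.0616) and without control 2 or 3 (0.0545 and 0.101), where the log2 change was 0.79, 0.74, 0.76, 0.83 and 0.60 in the same order. With one scaling for both kinds of reads it was 0.50 (edgeR adjusted p = 0.174, the highest of its alternatives, the lowest being 0.00574). Of its 401 exon reads, 400 spanned a junction.

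ZTR_09882 was the member with a lower share, and of the members tested its junction share differed most between the groups. It lies on LHCL01000348 from 747 to 2689 on the plus strand, as the only annotated gene of that contig, and has 5 exons with 1710 coding bases. Its share of reads outside exons was 56.9, 52.8 and 51.1% in pectin libraries against 65.7, 66.4 and 67.6% in controls (relative log2 change −0.52, SE 0.12, edgeR adjusted p = 0.0307). That call was lost without pectin 1, 2 or 3 (edgeR adjusted p = 0.055, 0.208 and 0.0896) and without control 1 or 3 (0.0587 and 0.0946), where the log2 change was −0.58, −0.44, −0.52, −0.51 and −0.45 in the same order. With one scaling it was −0.79 (edgeR adjusted p = 0.00701), and the adjusted p ran from 0.00211 to 0.208 over its alternatives. Junction reads, examined after these values had been seen, numbered 204, 293 and 367 with pectin against 43, 33 and 46 in controls. They made up 36.3, 36.8 and 36.3% of exon reads with pectin against 9.17, 8.13 and 11.9% in controls, with no overlap and little spread within each group.

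Junction reads were therefore tested in all genes, as a change relative to the other exon reads. The junction reads of ZTR_09882 prompted this test, so the call of that gene is given as a description. Of 91 members with enough reads of both kinds, 1 was higher and 1 lower with pectin (edgeR, adjusted p under 0.05 over 5762 genes), or 1.1% each, beside 0.642% and 0.295% of all genes tested and 0.663% and 0.332% of the multi-exon genes. ZTR_09882 was the one that rose, by 2.43 on the log2 scale (SE 0.16, edgeR adjusted p = 5.53e-09), with its 3 pectin libraries all above its controls. It kept its call in all 9 alternatives, with log2 changes from 2.28 to 2.49. Its exon reads rose by 1.10 (SE 0.23, edgeR adjusted p = 0.0186). ZTR_04432, on LHCL01000009 from 454592 to 456099 on the minus strand and made of 4 exons, was the one that fell. Junction reads made up 55.4, 51.7 and 65.7% of its exon reads with pectin against 80.5, 82.1 and 80.0% in controls (relative log2 change −1.52, SE 0.28, edgeR adjusted p = 0.00486). It kept its call in all 9 alternatives, with edgeR adjusted p from 0.00124 to 0.0471. Without control 3, 7 members had fewer junction reads relative to other exon reads (edgeR, adjusted p under 0.05), and over all genes the lower calls numbered 217 of 5627 in that fit, against 17 of 5762 with all libraries.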

How the data were processed

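Poly-A selected RNA of 3 pectin and 3 control cultures was sequenced from both fragment ends, per the labels' protocols. The deposited files give, per the file headers, RPKM and read counts per gene, total or uniquely mapped, split by whole gene, exon, intron and exon-exon junction. The authors also deposited the fraction of intron reads per gene to 2 decimals, and it was recomputed from the counts. Neither aligner, counter, strand use nor build is given in the sources used here, so antisense reads cannot be told apart. Annotated exon lengths are 100% multiples of 3 and are called coding lengths.

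Counts were tested over all genes with edgeR 4.0.16 in R 4.3.3 (quasi-likelihood, robust, TMM, filterByExpr by group, Benjamini-Hochberg, threshold 0.05). Changes of one read type relative to another used an interaction term between group and read type, blocked by library, for genes reaching 60 reads per type over the 6 libraries. Scripts were tested on simulated data. Alternatives were DESeq2 1.42.0, other scalings and filters, unique reads, a replicate block and left-out libraries. Python 3.11.15 and matplotlib 3.10.9 drew the figures. With 3 libraries against 3, an exact permutation p cannot fall below 0.1. The edgeR p-values set the group difference against a spread between these samples that is estimated partly from all genes.

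The members, lists and tests were chosen with earlier results of these data known. Named genes are the 4 members highest in share, the 4 with most reads, the highest 4 and lowest 2 in read density ratio, those at the threshold, and the largest 2 rises and falls in each test. Gene lists by product name were not applied, since the files pair no tags with products.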

Additional observations from a re-analysis of the deposited data

How the results depend on the processing

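The 168 members became 312 at a share of at least 0.4, 101 at 0.6, and 103 with at least 200 reads, and 168 to 189 when the thresholds were applied without 1 library. With any 1 library left out, members with more exon reads numbered 6 to 13 and those with fewer 2 to 9. These numbers were 6 to 17 and 3 to 9 in reads outside exons, 0 to 2 and 0 to 1 in the share, and 1 and 1 to 7 in junction reads. Where edgeR gave 0 higher members in the share without 1 library, 15 to 27 had an unadjusted p under 0.05, and where it gave 0 lower members, 5 to 12 did. Library size alone gave 9 higher members in exon reads, 9 in reads outside exons and 2 lower members in junction reads. A demand of at least 2-fold left 9 higher in reads outside exons. One scaling for both read types gave 0 higher (1 at an unadjusted p under 0.05 in edgeR) and 3 lower members in the share. No called member changed sign in any of these fits (0 in each). The cause of these differences was not tested, except that a demand of 2-fold lowers counts by construction.

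Same-numbered libraries of both groups are not said to be pairs. Their deviations correlated at 0.478, 0.073 and 0.432 over the genes tested, and at 0.558, 0.122 and 0.495 over genes with at least 50 reads on average, which does not settle the pairing, since a limit of 0.1 is passed by all pairs over one set of genes and not over the other. Pectin 1 and 3 correlated best with the control of their own number, as did pectin 2. Control 2 correlated best with pectin 3. The replicate block gave 26 higher and 11 lower members in reads outside exons, 6 and 2 in the share, and 2 higher in junction reads, and 17 and 12 in exon reads. The alternatives with total gene reads, with one scaling, with added bases per intron and gene end, without the member with the most reads and all those for junction reads were added with the data already seen.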

Other observations

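Members were rare among long genes, and the 7 with over 2000 coding bases were looked at after their values had been seen. The longest was ZTR_04591, on LHCL01000020 from 211927 to 219882 on the minus strand, and has 6252 coding bases in 7 exons. Its share of reads outside exons was 69.2, 71.6 and 65.4% in pectin libraries against 65.7, 70.0 and 73.8% in controls, while 271 single-exon genes of over 2000 bases had a median of 8.27%. Of its exon reads 3.54% spanned a junction, and its level was low, at 0.99, 0.72 and 1.23 RPKM with pectin against 0.57, 0.40 and 0.40 in controls. ZTR_10370, on LHCL01000182 from 16529 to 19399 on the minus strand, with 2448 coding bases in 7 exons, was much more abundant, at 127.2 ± 13.3 RPKM with pectin and 31.4 ± 1.40 RPKM in controls (SD, n = 3 each). Its share averaged 52.9%, and 2.51% of its exon reads spanned a junction.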
